A study of Mus musculus with 9 samples.

Results

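The CELF family (CUGBP and ELAV-like) comprises 6 mouse genes, Celf1 to Celf6, which were followed here in C2C12 myoblasts, an established line of mouse muscle precursor cells. Members were the array probe sets whose platform annotation named exactly 1 gene and whose symbol, older or current, belonged to a family member: 158 probe sets of the 1195555 on the array, of which 316997 named 1 gene. The older names were Cugbp1 for Celf1, Cugbp2 for Celf2 and Brunol4, Brunol5 and Brunol6 for Celf4, Celf5 and Celf6. All 25 Celf3 probe sets carried the older name Tnrc4, and 3 Celf2 probe sets carried a clone name. No probe set carried Brunol1. Of the 158 probe sets, 84 passed a low-signal filter, and all 6 genes were among the 12646 that had at least 3 such probe sets and were tested.

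The cells had received an siRNA against Cugbp1 (3 arrays), an siRNA against Mbnl1 (3 arrays) or a control siRNA (3 arrays), and RNA was taken 48 h later. The siRNA sequences were not used here, and the groups share 1 cell line and 1 time point. The labels number the replicates but do not say that they came from separate cultures, so each p-value measures the spread between these arrays only, which may be technical. Values are log2 of the deposited intensity, and a gene's value is a robust average (Tukey median polish) of its probe sets.

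CELF proteins bind GU-rich stretches of RNA through RNA recognition motifs and act on alternative splicing in the nucleus and on mRNA decay and translation in the cytoplasm. CELF1 is known for recruiting a deadenylase to mRNAs of short half-life and, in muscle, for opposing MBNL1 on many exons. Its activity is raised in myotonic dystrophy, where MBNL1 is sequestered. CELF1 and CELF2 are found in many tissues, whereas CELF3, CELF4, CELF5 and CELF6 are known mainly from the nervous system.

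Across the 9 arrays, median intensity was 42.3 to 42.9 after Cugbp1 siRNA, 42.5 to 42.9 after Mbnl1 siRNA and 43.6 to 43.8 after control siRNA, and the first principal component set both siRNA groups apart from the controls. Of the 7 myoblast markers, 6 were tested. Desmin (Des, control mean 11.88), Itga7 (10.55), Myf5 (10.17), Cdh15 (9.92) and Myod1 (9.61) stood well above the filter, which lay at 7.0 on the log2 scale (an intensity of 128). Pax7 (7.71) lay near it, and Myog had too few probe sets above it to be tested. Of the 10 neuron markers, 6 were tested, and Nefl (11.57), Stmn2 (10.54), Syn1 (9.05) and Tubb3 (9.02) also stood well above the filter, while Map2 (8.13) and Syt1 (7.82) were nearer to it. Elavl3, Elavl4 and Snap25 had too few probe sets above the filter to be tested, and Rbfox3 had none that named it alone.

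Celf1 had most of its probe sets far above background, whereas the other members had many within it. Genes for keratin-associated proteins, beta-defensins and odorant, vomeronasal and bitter taste receptors were taken as silent genes and served as the background. Not every one of them need be silent in myoblasts. Their 4121 probe sets had a control median of 3.75 and a 95th percentile of 7.02. Of the Celf1 probe sets, 25 of 32 had control means above that percentile. The count was 23 of 46 for Celf2, 12 of 25 for Celf3, 14 of 25 for Celf4, 5 of 16 for Celf5 and 3 of 14 for Celf6. Some silent genes' probe sets also passed the filter, 182 of 4121, and their median change was -0.18 after Cugbp1 siRNA and -0.17 after Mbnl1 siRNA. The weakest member probe sets that passed were 4386487 of Celf1 (mean over all arrays 7.0) and 5442125 of Celf2 (7.03), and the strongest that failed were 5544248 of Celf4 (6.97) and 5493468 of Celf3 (6.93). In 11 of the 84 that passed, the mean of at least 1 group lay below the filter.

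**Figure D1:**
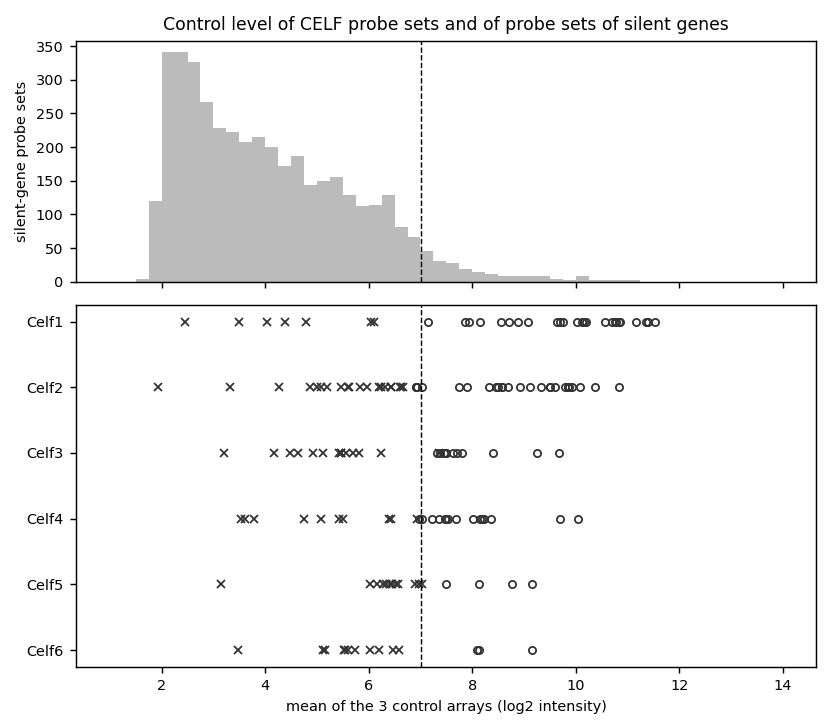
Control means (log2 intensity, horizontal axis) of the probe sets of silent genes as a histogram, above those of each CELF gene as points, with circles for probe sets that passed the low-signal filter and crosses for those that did not. The dashed line is the 95th percentile of the silent genes (7.02). Most Celf1 points lie to its right, and most Celf5 and Celf6 points to its left.

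After Cugbp1 siRNA, Celf1 transcripts stood at 36.4% of control, and the other 5 members differed by far less. Limma with Benjamini-Hochberg adjustment over all 12646 genes called 5 of the 6 members at an adjusted p under 0.05. Celf2 rose, while Celf1, Celf3, Celf5 and Celf6 fell. The same test called 38.7% of all genes, 26.0% higher and 12.7% lower, so the share called is to be read against a large background. The median change of the 6 genes was -0.31, against 0.05 over all genes. With every probe set used, whatever its signal, 3 members were called.

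After Mbnl1 siRNA, limma again called 5 of 6, of 41.5% of all genes. Celf2 and Celf4 rose, among 26.9% of genes called higher, and Celf3, Celf5 and Celf6 fell, among 14.6% called lower. The median change of the 6 genes was -0.14, against 0.04 over all genes. The count was 2 with every probe set used, and 3 without Mbnl1 siRNA replicate 3, control replicate 2 or control replicate 3. Both comparisons use the same 3 control arrays, so a high or low control value enters both. Between Cugbp1 siRNA and Mbnl1 siRNA, a comparison without the controls, Celf1 was the only member called, lower, where 9.34% of all genes were called and 5.07% were called lower.

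**Figure D2:**
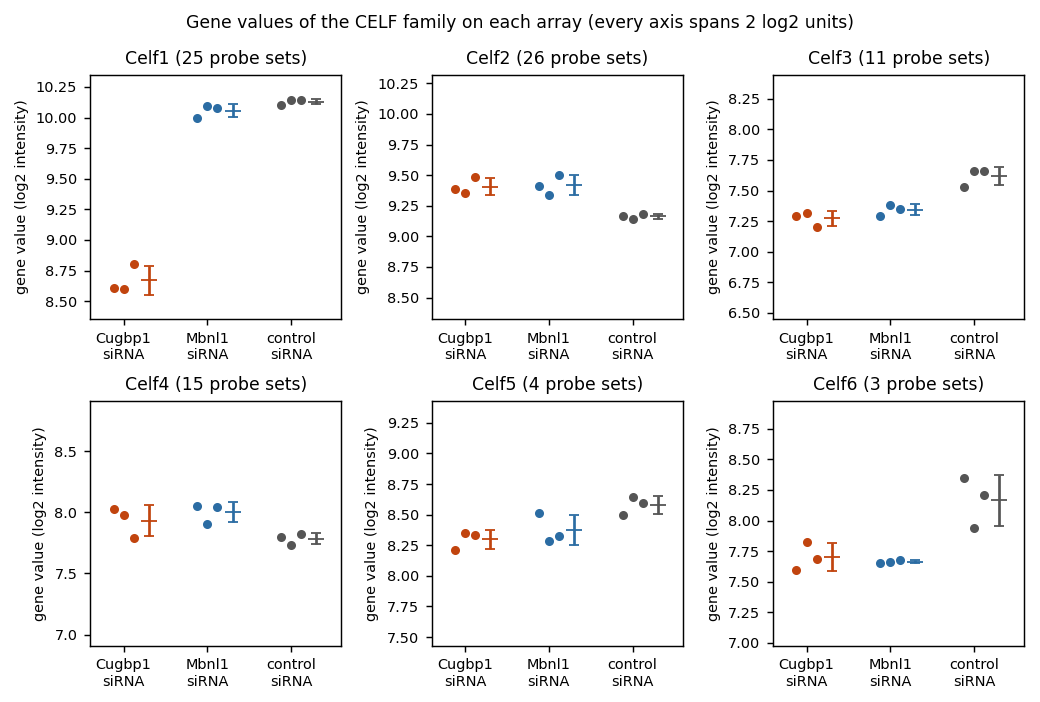
Gene values (log2 intensity, vertical axis) of the 6 CELF genes in the Cugbp1 siRNA, Mbnl1 siRNA and control siRNA arrays, left to right, with a point per array and the mean ± SD of 3 arrays. Celf1 is low in the 3 Cugbp1 siRNA arrays, whereas for Celf2 both siRNA groups lie above the controls and for Celf3 both lie below them.

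Celf1 encodes the best-studied member and is the gene the Cugbp1 siRNA targets. Its value was 8.60, 8.60 and 8.81 in the Cugbp1 siRNA arrays, 9.99, 10.10 and 10.08 in the Mbnl1 siRNA arrays and 10.11, 10.14 and 10.14 in the control arrays. The Cugbp1 siRNA arrays did not overlap either other group. Of all genes, 48.8% did not overlap the controls after Cugbp1 siRNA and 57.5% did not after Mbnl1 siRNA. Between the siRNAs, 29.5% of all genes did not overlap. Every gene described below as apart from another group is to be read against these shares. Relative to control, Celf1 fell by 1.46 (SE 0.06, limma adjusted p = 9.01e-07), which was rank 2 of 12646 genes by size of change. In bulk RNA, fewer cells that carry the transcript and less transcript in each cell cannot be told apart. Against Mbnl1 siRNA, Celf1 was lower by a like amount, -1.39 (limma adjusted p = 1.33e-06), which left 38.2% of the Mbnl1 siRNA level. After Mbnl1 siRNA, Celf1 differed from control by -0.07, which was not called (limma adjusted p = 0.345, 95% interval -0.20 to 0.06). The Mbnl1 siRNA arrays nevertheless all lay below the control arrays.

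The Celf1 probe sets did not move evenly. Of the 25 that passed the filter, 22 fell after Cugbp1 siRNA, 1 rose and 2 were not called. Limma called 16.0% of all probe sets here, 9.38% higher and 6.58% lower. A change of at least 2-fold downward was seen in 20, against 0.198% of all probe sets, and these 20 ranged from -1.14 to -1.88. After Mbnl1 siRNA, 1 of the 25 was called, lower, where limma called 22.0% of all probe sets (13.4% higher and 8.57% lower). Between Cugbp1 siRNA and Mbnl1 siRNA, 21 were called, all lower, against 0.924% of all probe sets called and 0.600% called lower.

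Probe set 5100713 fell furthest. It read 9.53, 9.53 and 9.51 in the Cugbp1 siRNA arrays, 10.98, 11.08 and 11.06 in the Mbnl1 siRNA arrays and 11.38, 11.39 and 11.43 in the control arrays. The 3 groups did not overlap. It fell by 1.88 after Cugbp1 siRNA (limma adjusted p = 1.91e-09), and this was also the Celf1 probe set called after Mbnl1 siRNA, at -0.36 (limma adjusted p = 0.00396). Probe set 4965145 followed, with 8.55, 8.11 and 8.17 after Cugbp1 siRNA, 10.05, 10.12 and 10.08 after Mbnl1 siRNA and 10.12, 10.09 and 10.16 in controls. Only its Cugbp1 siRNA arrays stood apart. Of all probe sets that passed the filter, 33.2% did not overlap the controls after Cugbp1 siRNA and 41.3% did not after Mbnl1 siRNA. Between the siRNAs, 17.8% did not overlap. Separation of groups in single probe sets is to be read against these shares.

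**Figure D3:**
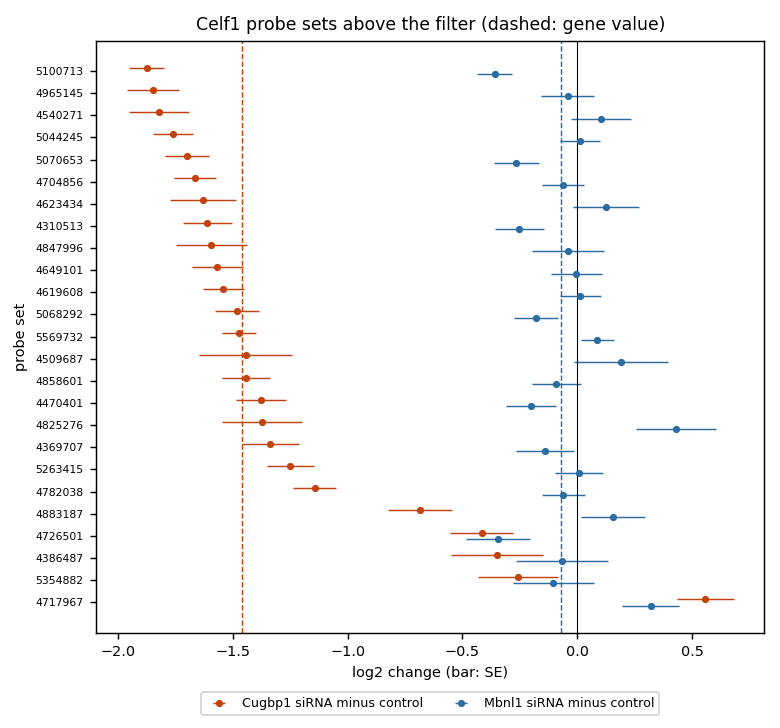
The 25 Celf1 probe sets that passed the filter, 1 per line down the vertical axis, with the log2 change relative to control (horizontal axis) after Cugbp1 siRNA and after Mbnl1 siRNA and bars of 1 SE. Dashed lines are the changes of the gene value, -1.46 and -0.07. After Cugbp1 siRNA 20 lie between -1.14 and -1.88 and 1, probe set 4717967, lies above 0.

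One Celf1 probe set went the other way. Probe set 4717967 read 9.55, 9.17 and 9.59 after Cugbp1 siRNA, 9.33, 9.11 and 9.17 after Mbnl1 siRNA and 8.80, 8.96 and 8.88 in controls. Both siRNA groups lay above every control array and overlapped each other. It rose by 0.56 after Cugbp1 siRNA (limma adjusted p = 0.00824), while the gene as a whole fell. A test of each probe set against its own gene (limma on the difference between probe set and gene value) gave a departure of 2.02 (adjusted p = 0.000246). This call held in each of the 9 fits that left out 1 array and in each of the 8 other settings tried. Its departure between Cugbp1 siRNA and Mbnl1 siRNA was 1.62 (limma adjusted p = 0.00236), while its own difference between them was 0.24 (limma adjusted p = 0.491).

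The departure test could be run on 81 CELF probe sets, those of genes with at least 4 that passed the filter, which leaves out Celf6. After Cugbp1 siRNA it called 10 of them, 6 upward and 4 downward, against 3.75% of all probe sets tested, 1.42% upward and 2.33% downward. In Celf1 these were 5 upward and 1 downward, the downward one being probe set 5100713 (-0.42, limma adjusted p = 0.0130). As Celf1 itself fell by 1.46, a Celf1 probe set that hardly changed departs upward by construction. The median absolute change over all genes tested was 0.13, so the shares above are not a like comparison for Celf1. With no filter on low values 3 of all probe sets of the family were called.

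Probe set 5354882 read 7.56, 7.58 and 7.66 after Cugbp1 siRNA, 7.66, 7.80 and 7.80 after Mbnl1 siRNA and 7.44, 7.95 and 8.18 in controls. Both siRNA groups lay within the range of the controls, its change of -0.26 was not called (limma adjusted p = 0.325), and its departure was 1.2 (limma adjusted p = 0.00524). Probe set 4386487, the weakest that passed the filter, had a change of -0.35 (limma adjusted p = 0.237) and a departure of 1.11. These 2 had control means of 7.86 and 7.14, near the 95th percentile of silent genes, and the part of that low level in their departures was not tested.

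Probe set 4726501 was well above that level. It read 9.25, 9.61 and 8.97 after Cugbp1 siRNA, 9.19, 9.37 and 9.48 after Mbnl1 siRNA and 9.59, 9.74 and 9.74 in controls. The Cugbp1 siRNA arrays overlapped both other groups. Its difference of -0.42 after Cugbp1 siRNA passed the threshold narrowly (limma adjusted p = 0.0497) and stayed called in 1 of the 9 fits that left out 1 array, that without Cugbp1 siRNA replicate 2. Over all settings it ranged from -0.58 to -0.26, with adjusted p up to 0.221. Its departure was 1.04 (limma adjusted p = 0.0105), and its change between Cugbp1 siRNA and Mbnl1 siRNA was -0.07 (limma adjusted p = 0.901). Probe set 4883187 fell by 0.69 (limma adjusted p = 0.00501) with a departure of 0.77, which lost its call without Cugbp1 siRNA replicate 1 or 2 or control replicate 3. The departure test between the siRNAs called 3 CELF probe sets, against 0.0277% of all probe sets (0.0145% upward), and all 3 were upward and in Celf1: 4717967, 4726501 and 5354882. When 1 array was left out, 4726501 stayed called in 1 of 9 fits and 5354882 in 2 of 9. None of the 3 was itself called as different between the siRNAs (limma adjusted p = 0.491, 0.901 and 0.807). Celf1 differed by -1.39 there, so a probe set that did not follow its gene departs upward by construction. The shares over all probe sets are therefore not a like comparison. The positions of these probe sets among the exons of Celf1 were not analysed here.

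**Figure D4:**
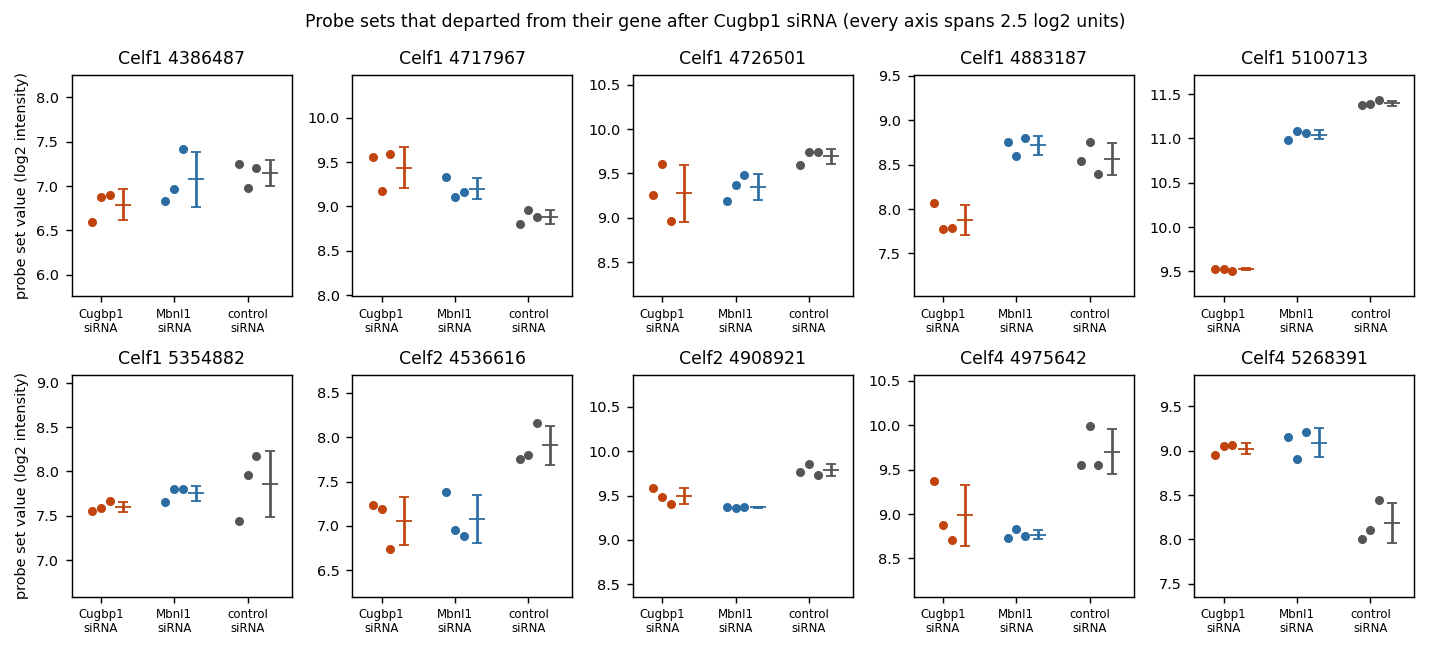
The 10 CELF probe sets that departed from their gene after Cugbp1 siRNA, with the log2 intensity of each array (vertical axis) in the Cugbp1 siRNA, Mbnl1 siRNA and control siRNA groups, left to right, and the mean ± SD of 3 arrays. Celf1 probe set 4717967 is higher in both siRNA groups than in controls, and Celf1 probe set 5100713 is lowest after Cugbp1 siRNA.

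Celf2, the closest relative of Celf1 and likewise a regulator of splicing and mRNA stability, was higher after both siRNAs. Its value was 9.39, 9.35 and 9.48 after Cugbp1 siRNA, 9.42, 9.34 and 9.50 after Mbnl1 siRNA and 9.17, 9.14 and 9.18 in controls. Every array of both siRNA groups lay above every control array, and the siRNA groups overlapped each other. Arrays apart from the controls were common, in 48.8% of all genes after Cugbp1 siRNA and 57.5% after Mbnl1 siRNA. Celf2 rose by 0.24 after Cugbp1 siRNA (SE 0.05, limma adjusted p = 0.00643), a 1.18-fold increase, and by 0.26 after Mbnl1 siRNA (limma adjusted p = 0.00409), a 1.19-fold increase. Between Cugbp1 siRNA and Mbnl1 siRNA the difference was -0.01 (limma adjusted p = 0.922, 95% interval -0.13 to 0.10).

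Of the 26 Celf2 probe sets that passed the filter, 22 were higher after Cugbp1 siRNA and 23 after Mbnl1 siRNA, where 54.9% and 54.1% of all probe sets were higher. Limma called 8 higher and 2 lower after Cugbp1 siRNA (9.38% and 6.58% of all probe sets), and 10 higher and 2 lower after Mbnl1 siRNA (13.4% and 8.57% of all probe sets). The largest increase was at probe set 4316241, which read 8.31, 7.57 and 7.90 after Cugbp1 siRNA, 8.36, 7.74 and 8.42 after Mbnl1 siRNA and 6.87, 7.31 and 6.63 in controls. Its control mean of 6.94 lay below the filter, so it passed through the siRNA arrays, and its differences of 0.99 and 1.23 are given as a description only. Probe set 5268086, called higher after Mbnl1 siRNA, passed through those arrays (mean 7.50, against 6.98 after Cugbp1 siRNA and 6.91 in controls). Probe set 4853171 (control mean 6.91), higher but not called, passed through the siRNA arrays too. The counts above include these probe sets, so the filter favoured higher ones in part.

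Against the direction of the gene, 2 Celf2 probe sets fell after both siRNAs. Probe set 4536616 read 7.23, 7.19 and 6.75 after Cugbp1 siRNA, 7.39, 6.96 and 6.89 after Mbnl1 siRNA and 7.76, 7.80 and 8.16 in controls. It fell by 0.85 and by 0.83, with departures of -1.09 and -1.08 (limma adjusted p = 0.0173 and 0.0118). The departure call was lost without Cugbp1 siRNA replicate 3 or control replicate 3 after Cugbp1 siRNA, and without Mbnl1 siRNA replicate 3 after Mbnl1 siRNA. Probe set 4908921 read 9.59, 9.48 and 9.41 after Cugbp1 siRNA, 9.38, 9.36 and 9.37 after Mbnl1 siRNA and 9.76, 9.86 and 9.74 in controls. In both probe sets all control arrays lay above all siRNA arrays. Probe set 4908921 departed by -0.54 after Cugbp1 siRNA and by -0.67 after Mbnl1 siRNA (limma adjusted p = 0.0137 and 0.00348). Its own fall of 0.29 after Cugbp1 siRNA lost its call in 8 of the 9 fits that left out 1 array. The call held in 3 of 9 other settings, and the highest limma adjusted p over all settings was 0.150.

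Celf3, known from brain, was lower after both siRNAs. Its value was 7.29, 7.32 and 7.21 after Cugbp1 siRNA, 7.29, 7.39 and 7.35 after Mbnl1 siRNA and 7.53, 7.66 and 7.66 in controls. No siRNA array reached the lowest control array, where 48.8% and 57.5% of all genes did not overlap the controls. Celf3 fell by 0.34 after Cugbp1 siRNA (SE 0.05, limma adjusted p = 0.00121) and by 0.27 after Mbnl1 siRNA (limma adjusted p = 0.00275), and between Cugbp1 siRNA and Mbnl1 siRNA the difference was -0.07 (limma adjusted p = 0.452, 95% interval -0.19 to 0.04). The kept silent-gene probe sets moved in the same direction (medians of -0.18 and -0.17), and the part of background signal in the Celf3 change was not tested. Of its 11 probe sets that passed the filter, 10 were lower after Cugbp1 siRNA and 9 after Mbnl1 siRNA. Of all probe sets, 54.9% and 54.1% were higher in these comparisons. The test called 1 of the 11 lower after Cugbp1 siRNA, near the 6.58% of all probe sets called lower, and 3 after Mbnl1 siRNA, where 8.57% of all were. Probe set 4372025 read 7.38, 7.08 and 6.60 after Cugbp1 siRNA, 7.01, 7.04 and 7.26 after Mbnl1 siRNA and 7.81, 7.50 and 7.80 in controls, with no overlap between either siRNA group and the controls. It fell by 0.68 after Cugbp1 siRNA and by 0.60 after Mbnl1 siRNA. The first call was lost in 4 of the 9 fits that left out 1 array (5 kept), without Cugbp1 siRNA replicate 2 or 3 or control replicate 1 or 3. The second was lost in 5 (4 kept), without any Mbnl1 siRNA replicate or control replicate 1 or 3. The highest limma adjusted p over all settings was 0.137 and 0.119.

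Celf4, a neuronal member that binds many synaptic mRNAs in mouse brain, combined probe sets of opposite direction. Its gene value was 8.03, 7.98 and 7.79 after Cugbp1 siRNA, 8.05, 7.91 and 8.04 after Mbnl1 siRNA and 7.79, 7.74 and 7.82 in controls. The Mbnl1 siRNA arrays lay above the controls, and 1 Cugbp1 siRNA array lay among them. Celf4 rose by 0.22 after Mbnl1 siRNA (limma adjusted p = 0.0271), and the difference after Cugbp1 siRNA was 0.15 (SE 0.07, limma adjusted p = 0.110). Without Cugbp1 siRNA replicate 3 that difference was 0.20 and called (limma adjusted p = 0.0336), and without Cugbp1 siRNA replicate 1 it was 0.06 (adjusted p = 0.595). With every probe set used it was 0.02 (adjusted p = 0.871). The call after Mbnl1 siRNA was lost without Mbnl1 siRNA replicate 1 or 3 or control replicate 2 or 3 (adjusted p = 0.0535, 0.0879, 0.0852 and 0.0515). Over all 20 alternatives the rise after Mbnl1 siRNA ranged from 0.06 to 0.26, with limma adjusted p up to 0.514. Its call was lost in 7 of the 20, these fits among them. Celf4 differed between Cugbp1 siRNA and Mbnl1 siRNA by -0.07 (limma adjusted p = 0.581, 95% interval -0.22 to 0.08).

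The opposite directions within Celf4 were at probe sets 5268391 and 4975642. Probe set 5268391 read 8.95, 9.05 and 9.07 after Cugbp1 siRNA, 9.16, 8.91 and 9.21 after Mbnl1 siRNA and 8.01, 8.11 and 8.44 in controls. Probe set 4975642 read 9.37, 8.88 and 8.71 after Cugbp1 siRNA, 8.73, 8.83 and 8.75 after Mbnl1 siRNA and 9.56, 10.00 and 9.55 in controls. In both, the control arrays were apart from all 6 siRNA arrays, below them in 5268391 and above them in 4975642. Probe set 5268391 rose by 0.84 and 0.91 (limma adjusted p = 0.00129 and 0.000421), and 4975642 fell by 0.72 and 0.93 (limma adjusted p = 0.00731 and 0.000929). After Mbnl1 siRNA the departure test called 10 CELF probe sets, 2 upward and 8 downward, against 6.98% of all probe sets (3.05% upward and 3.92% downward), of which 5 were in Celf4, 4 in Celf2 and 1 in Celf1. One of the 4 in Celf2 was 4316241, which passed the filter through the siRNA arrays. After Cugbp1 siRNA, 5268391 and 4975642 departed by 0.69 and -0.86 (limma adjusted p = 0.0107 and 0.0135, lost for 4975642 without Cugbp1 siRNA replicate 3). After Mbnl1 siRNA they departed by 0.69 and -1.15 (limma adjusted p = 0.00694 and 0.00262), and the other 3 in Celf4 ranged from -0.35 to -0.57. The 10 became 5, 6 and 3 without Mbnl1 siRNA replicates 1, 2 and 3, and 5 without control replicate 3. Neither Celf4 probe set differed past the threshold between Cugbp1 siRNA and Mbnl1 siRNA (limma adjusted p = 0.90 and 0.653).

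**Figure D5:**
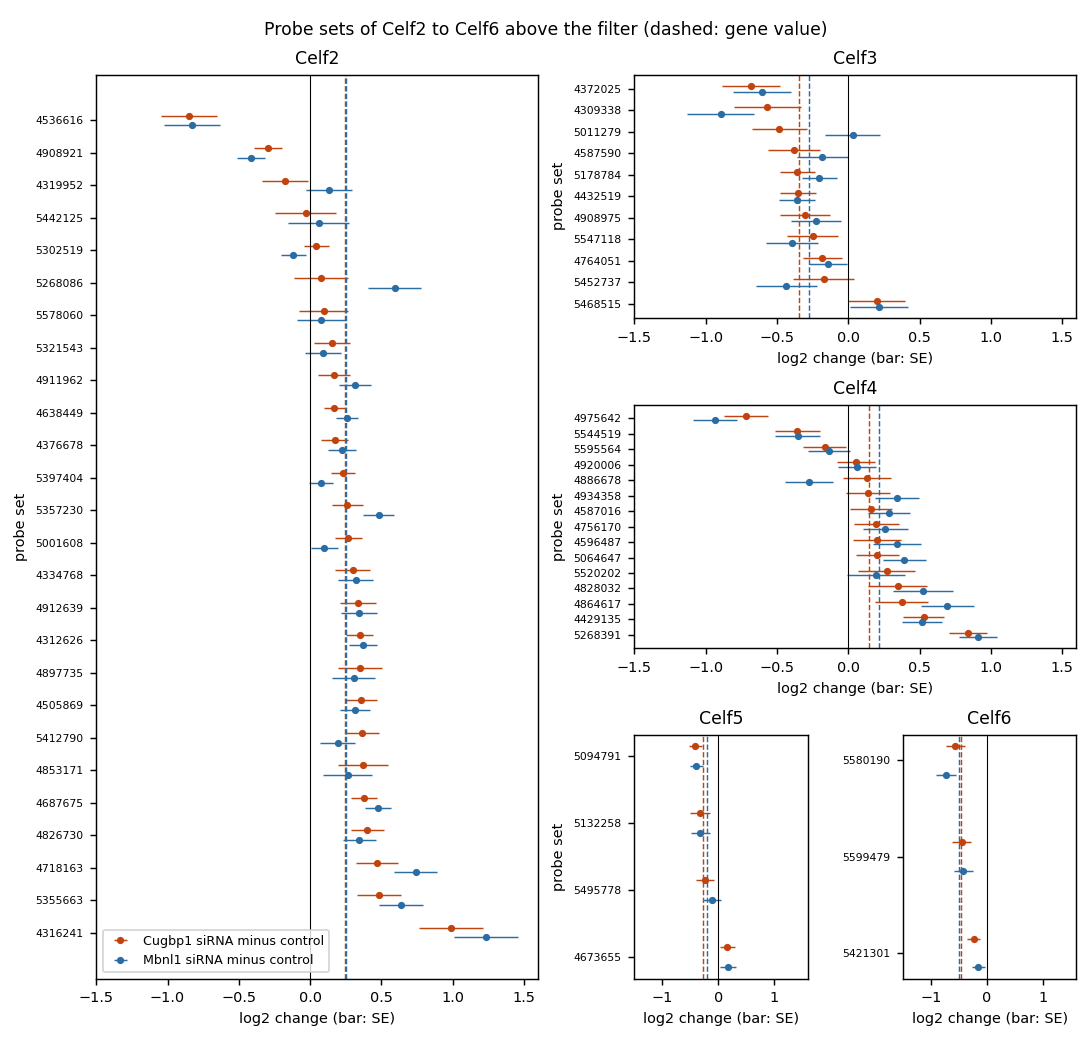
Log2 change relative to control (horizontal axis) of each probe set of Celf2 to Celf6 that passed the filter, 1 per line, after Cugbp1 siRNA and after Mbnl1 siRNA, with bars of 1 SE and the change of the gene value as dashed lines. Both comparisons share the control arrays, so the paired points are not independent. Most Celf2 points lie to the right of 0 and most Celf3 points to its left, and Celf4 has probe sets at both ends.

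Celf5 and Celf6, members best known from the nervous system, rested on 4 and 3 probe sets. Celf5 read 8.21, 8.35 and 8.34 after Cugbp1 siRNA, 8.51, 8.29 and 8.33 after Mbnl1 siRNA and 8.50, 8.64 and 8.59 in controls. The Cugbp1 siRNA arrays lay below the controls, and 1 Mbnl1 siRNA array overlapped them. Celf5 fell by 0.28 after Cugbp1 siRNA (SE 0.07, limma adjusted p = 0.0110) and by 0.20 after Mbnl1 siRNA (limma adjusted p = 0.0379). The call after Mbnl1 siRNA was lost without Mbnl1 siRNA replicate 2 or 3 or control replicate 2 or 3 (adjusted p = 0.162, 0.115, 0.135 and 0.0529) and with the replicate number as a block (adjusted p = 0.0645). The 9 silent genes with enough probe sets to be tested had median changes of -0.22 after Cugbp1 siRNA and -0.20 after Mbnl1 siRNA, and 4 of them were called lower and 0 higher after each. The part of background signal in the Celf5 change was not tested.

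Celf6 read 7.59, 7.82 and 7.68 after Cugbp1 siRNA, 7.65, 7.66 and 7.68 after Mbnl1 siRNA and 8.35, 7.94 and 8.21 in controls. All siRNA arrays lay below all controls, where 48.8% and 57.5% of all genes did not overlap the controls. The control arrays had the widest spread of any CELF gene and group (SD 0.21). Celf6 fell by 0.46 after Cugbp1 siRNA (SE 0.09, limma adjusted p = 0.00426) and by 0.50 after Mbnl1 siRNA (limma adjusted p = 0.00233). Between Cugbp1 siRNA and Mbnl1 siRNA, Celf5 differed by -0.08 (limma adjusted p = 0.550, 95% interval -0.23 to 0.08) and Celf6 by 0.03 (limma adjusted p = 0.868, 95% interval -0.17 to 0.24). With every probe set used, whatever its signal, the Celf6 differences were -0.10 and -0.06 and neither was called (limma adjusted p = 0.400 and 0.617), and the Celf5 differences were -0.16 and -0.15 (limma adjusted p = 0.0862 and 0.0775).

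The 74 probe sets below the filter were examined in a fit of all probe sets. In that fit 2 of them were called after Cugbp1 siRNA (0.901% of all probe sets below the filter) and 2 after Mbnl1 siRNA (1.73%). Celf1 probe set 4554993 rose by 1.32 after Cugbp1 siRNA (limma adjusted p = 0.0339), with 5.81, 5.54 and 5.73 against 4.69, 4.32 and 4.11 in controls. After Mbnl1 siRNA it read 5.27, 5.18 and 5.94, a difference of 1.09 (limma adjusted p = 0.0566). Between the siRNAs it differed by 0.23 (limma adjusted p = 0.93). Celf2 probe set 5583475, annotated under the clone name D230046B21Rik, read 4.84, 5.14 and 4.81 after Cugbp1 siRNA, 6.31, 6.27 and 6.59 after Mbnl1 siRNA and 5.76, 6.26 and 5.88 in controls. It fell by 1.03 after Cugbp1 siRNA (limma adjusted p = 0.0426) and differed by -1.46 from its level after Mbnl1 siRNA (limma adjusted p = 0.0341). In neither did the Cugbp1 siRNA arrays overlap the controls. Celf2 probe set 5429795 rose by 1.65 and Celf3 probe set 4366466 fell by 1.40 after Mbnl1 siRNA (limma adjusted p = 0.0122 and 0.0269). After Cugbp1 siRNA these differed by 1.29 and -0.57 (limma adjusted p = 0.0553 and 0.417). All 4, like every probe set below the filter, had means over the arrays below the 95th percentile of silent genes, which lies above the filter. Of the 14 Celf3 probe sets below the filter, 11 were lower after Cugbp1 siRNA and 14 after Mbnl1 siRNA, where 52.1% and 53.9% of all probe sets below the filter were lower. For Celf4 the counts were 9 and 9 of 10, against the direction of its gene value. They were 8 and 10 of 12 for Celf5 and 6 and 7 of 11 for Celf6. For Celf1 they were 3 and 1 of 7, and for Celf2 6 and 6 of 20.

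Among 12 factors that act on or with CELF1, 11 were tested. After Cugbp1 siRNA 1 rose and 1 fell, where 26.0% of all genes were called higher and 12.7% lower, and after Mbnl1 siRNA 2 rose, where the shares were 26.9% and 14.6%. Their median change was 0.06 after Cugbp1 siRNA (all genes 0.05) and 0.04 after Mbnl1 siRNA (all genes 0.04). Parn, the deadenylase that CELF1 is known to recruit, read 8.66, 8.66 and 8.63 after Cugbp1 siRNA, 8.36, 8.24 and 8.26 after Mbnl1 siRNA and 8.44, 8.39 and 8.33 in controls. Its Cugbp1 siRNA arrays lay above all others, whereas the Mbnl1 siRNA arrays overlapped the controls. Parn rose by 0.27 after Cugbp1 siRNA (SE 0.05, limma adjusted p = 0.00262), and it was higher by 0.36 than after Mbnl1 siRNA (limma adjusted p = 0.00151). The kinase gene Prkcb fell by 0.28 after Cugbp1 siRNA (limma adjusted p = 0.0234), a call lost without Cugbp1 siRNA replicate 2 or 3 or control replicate 2 (adjusted p = 0.0544, 0.0668 and 0.0675). With every probe set used it was -0.09 (adjusted p = 0.399), and with the filter at the 50th percentile -0.09 (adjusted p = 0.311). After Mbnl1 siRNA the kinase genes Gsk3b and Prkca rose by 0.21 and 0.17 (limma adjusted p = 0.00329 and 0.0201). The call of Prkca was lost without Mbnl1 siRNA replicate 3 or control replicate 2 or 3 (adjusted p = 0.0700, 0.0625 and 0.0655).

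Among 13 other RNA-binding relatives and antagonists, 9 were tested. After Cugbp1 siRNA 0 rose and 1 fell, Mbnl3 by 0.23 (limma adjusted p = 0.0105), beside 26.0% of all genes called higher and 12.7% lower. After Mbnl1 siRNA 3 rose, Mbnl2 by 0.21, Ptbp2 by 0.20 and Rbfox2 by 0.13, and the targeted Mbnl1 fell by 1.35 and Mbnl3 by 0.38 (limma with Benjamini-Hochberg). Here 26.9% of all genes were called higher and 14.6% lower. The calls of Ptbp2 and Rbfox2 were each lost without 1 array, Mbnl1 siRNA replicate 3 for Ptbp2 (0.18, adjusted p = 0.0784) and Mbnl1 siRNA replicate 1 for Rbfox2 (0.12, adjusted p = 0.0827). The ELAV-like genes Elavl2, Elavl3 and Elavl4, neuronal relatives that bind AU-rich elements, had too few probe sets above the filter to be tested.

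Markers of other cell types were set beside the neuronal CELF genes. Of all genes, 38.7% were called after Cugbp1 siRNA and 41.5% after Mbnl1 siRNA. Of the 6 neuron markers tested, 1 rose and 1 fell after Cugbp1 siRNA (Map2 by 0.16 and Syt1 by 0.33), and 3 rose and 1 fell after Mbnl1 siRNA, with Map2 up by 0.40 and Syt1 down by 0.33. The summed log2 level of all neuron markers with probe sets was 66.8 to 67.2 after Cugbp1 siRNA, 67.5 to 67.9 after Mbnl1 siRNA and 67.3 to 67.4 in controls. Of 4 heart markers 1 was tested and it was not called, with summed levels of 23.4 to 24.2, 23.5 to 24.1 and 24.2 to 24.7 after Cugbp1 siRNA, after Mbnl1 siRNA and in controls. Of 4 blood markers, 2 fell after Cugbp1 siRNA and 1 rose and 1 fell after Mbnl1 siRNA, with summed levels of 23.0 to 23.5, 23.8 to 23.9 and 23.7 to 24.0 for these groups. Of the 6 myoblast markers tested, Myod1 and Cdh15 rose after Cugbp1 siRNA by 0.30 and 0.32, and Myf5 fell after Mbnl1 siRNA by 0.28. The part of these markers in the CELF changes was not tested.

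By pattern over the 9 arrays, the genes most like Celf1 were Pabpc4, a cytoplasmic poly(A)-binding protein (Pearson r = 0.987), the sphingomyelin synthase gene Sgms2 (0.984), Ehd4 (0.980), Frrs1 (0.974) and Zdhhc2 (0.973). Pabpc4 read 9.89, 9.88 and 9.89 after Cugbp1 siRNA, 10.16, 10.22 and 10.27 after Mbnl1 siRNA and 10.21, 10.24 and 10.26 in controls. It was lower than control by 0.35 after Cugbp1 siRNA. The most opposite were Soat1, which esterifies cholesterol (r = -0.996), the neurotrophin receptor gene Ngfr (-0.984), the homeobox gene Hoxc10 (-0.980), Ccdc6 (-0.978) and Eftud2, a spliceosomal GTPase (-0.977). Soat1 was higher than control by 0.44, with 10.55, 10.54 and 10.49 after Cugbp1 siRNA, 10.10, 10.11 and 10.10 after Mbnl1 siRNA and 10.06, 10.10 and 10.10 in controls. The values of Celf1 fall into a low cluster of 3 arrays and a high cluster of 6, so these correlations mainly record which genes separated the Cugbp1 siRNA arrays from the rest. Genes picked in this way differ after Cugbp1 siRNA by their selection, so the differences of Pabpc4 and Soat1 are a description only. Within the 6 Mbnl1 siRNA and control arrays, r with Celf1 was 0.757 for Pabpc4, 0.709 for Sgms2, 0.355 for Ehd4, 0.109 for Frrs1 and -0.168 for Zdhhc2. For the opposite genes it was 0.01 for Soat1, 0.531 for Ngfr, -0.413 for Hoxc10, -0.809 for Ccdc6 and 0.606 for Eftud2.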

How the data were processed

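Per the submitters' processing notes, the authors made the values with RMA in Affymetrix Expression Console, with mm9 as the genome build. The deposited values are linear intensity, 1 per probe set and array. Log2 values were computed from them here, with no further normalisation. The array chemistry gives no read depth, and 3 arrays per group limit the precision.

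Groups and replicate numbers came from the sample titles. Probe sets were named through the platform annotation where it gives 1 symbol (316997 probe sets; 6571 had several and 871987 were not listed), updated through RefSeq to current symbols (17988 of 22264 symbols were current, 4213 were updated and 63 were kept as given). The low-signal filter kept a probe set if the average of its 9 log2 values was at or above the array-wide 75th percentile, 7.0. This left 298889, of which 168803 were named. Probe sets that passed were summarised per gene by Tukey median polish, for the 12646 genes with at least 3.

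Gene values and probe sets were tested in R 4.3.3 with limma 3.58.1 (and the data.table package, version 1.17.8), in 1 fit of all 9 arrays without a replicate block, with eBayes and Benjamini-Hochberg adjustment over all genes or all kept probe sets, at an adjusted p under 0.05. The departure of a probe set is its value minus its gene value, tested likewise over 158713 probe sets of 11374 genes with at least 4. The code was tested on simulated data. The 95% intervals are for single differences, unadjusted.

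All 6 members are named. Probe sets are described singly where they had the largest or smallest change, departed from their gene or lay next to the filter, and examples from among the called ones were added after their values were seen. Genes most like Celf1 are the 5 highest and 5 lowest correlations. The members, the lists of relatives, partners and cell type markers and the tests were chosen with earlier results of these data known. Alternatives were the filter, the normalisation, the gene summary, the variance model, the groups in the fit, the replicate block and leaving out each array.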

Additional observations from a re-analysis of the deposited data

How the results depend on the processing

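The single-gene differences, each recomputed under the alternatives, gave 677 values. These cover the CELF genes and also genes outside the family that are named above, the latter only in comparisons where they were called. Of the 677, 635 kept direction and side of the threshold, which is therefore not a share for the CELF family alone. The calls of Celf1 after Cugbp1 siRNA and of Celf2 and Celf3 after both siRNAs were among those kept, in every setting tried. The calls of Celf4, Celf5 and Celf6 rested on the low-signal filter. With no filter, 3 CELF genes were called after Cugbp1 siRNA and 2 after Mbnl1 siRNA, and departing probe sets numbered 3, 3 and, between Cugbp1 siRNA and Mbnl1 siRNA, 0. With the filter at the 50th percentile, 3 and 2 genes were called, and 1 probe set departed between Cugbp1 siRNA and Mbnl1 siRNA. The diffSplice test called 18 departures after Cugbp1 siRNA and 9 between Cugbp1 siRNA and Mbnl1 siRNA. Leaving out 1 array gave 5 to 6 genes called after Cugbp1 siRNA, 3 to 5 after Mbnl1 siRNA and 1 to 1 between them. Probe sets called were 27 to 37, 13 to 26 and 21 to 21, and departures 7 to 11, 3 to 10 and 1 to 2, for the same 3 comparisons. The lowest probe set counts after Mbnl1 siRNA came without Mbnl1 siRNA replicate 1 (14), Mbnl1 siRNA replicate 3 (13) and control replicate 3 (13), and departures between the siRNAs fell to 1 without Cugbp1 siRNA replicate 1 or 2, any Mbnl1 siRNA replicate, or control replicate 2. Same-numbered arrays correlated by -0.10 to 0.12 in their deviations from the group means, and 1 of 9 such correlations was over 0.1. Such low values show little shared deviation, but with 3 arrays per group they cannot settle whether the numbers pair the arrays. With the replicate number as a block, 5, 4 and 1 genes and 36, 18 and 21 probe sets were called, with 10, 8 and 1 departures. Signs turned only where no call was made: without the filter for Celf1 after Mbnl1 siRNA (0.0010) and between the siRNAs for Celf3 (0.0018) and Celf6 (-0.0399), and, between the siRNAs, for Celf2 without Cugbp1 siRNA replicate 1 (0.0035) or 2 (0.0257, with -0.0598 the lowest value when 1 array was left out) or Mbnl1 siRNA replicate 3 (0.01), Celf6 without Cugbp1 siRNA replicate 2 (-0.0408, with 0.056 the highest) and Celf4 without Cugbp1 siRNA replicate 3 (0.0086). Centring each array on its median moved the median of all genes to 0.09 after Cugbp1 siRNA and to 0.08 after Mbnl1 siRNA (0.05 and 0.04 as deposited), whereas repeated quantile normalisation gave 0.03 and 0.01 and centring on the kept probe sets 0.02 and 0.0051. Under median centring Celf4 was called after Cugbp1 siRNA (0.19, limma adjusted p = 0.0409) and Celf5 was not called after Mbnl1 siRNA (-0.16, limma adjusted p = 0.0847). Centring on the kept probe sets and using only the listed older names were chosen after seeing the data. The older names alone leave out Celf3, and 4 genes were then called after each siRNA. The cause of these changes was not tested. Signal near that of silent genes limits what can be said of Celf3 to Celf6.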
